A study of Rattus norvegicus with 9 samples.

Results

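Translation initiation and elongation factors are the proteins that start protein synthesis on an mRNA and then extend the chain. Their transcripts were followed in tibialis anterior, a hindlimb muscle, from 9 male rats of the Sprague Dawley strain, acquired at the age of 10 weeks and compared as 3 fed animals (Fed), 3 animals fasted into phase 2 (P2) and 3 animals fasted into phase 3 (P3). P2 is the stage of a long fast in which body mass falls slowly and body protein is spared. P3 follows it, with accelerated loss of body mass and protein, and these rats were taken the day after its onset, with water available to all groups throughout. The arrayed rats were 3 of the 5 held in each group.

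One Affymetrix Rat Gene 1.0 ST array was hybridised per rat, with RNA from homogenised whole muscle. A gene was included when a probe set was annotated with a single symbol that starts with Eif1 to Eif6, Eef1 or Eef2. The eIF4E-binding proteins with an Eif4ebp symbol, the eIF2 kinases, the eEF2 kinase and pseudogenes were left out. This gave 48 genes of 14506 measured, namely 38 with an Eif symbol, 6 of the eEF1 family, Eef2 itself and 3 methyltransferases that act on eEF1A or eEF2. The 38 are called initiation factor genes below by symbol alone. They include Eif4enif1, the eIF4E transporter, Eif1ad, which has an eIF1A-like domain, and Eif5a. Eif1, Eif3f, Eif3g, Eif3m, Eif4g1, Eif4a3 and Eif5a2 were not analysed here. Every value below is a log2 intensity of a probe set after normalization by RMA, or a difference of such values between groups. Intensities of different probe sets are not set against each other.

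Initiation begins when eIF2, bound to GTP, carries the initiator tRNA to the small ribosomal subunit, where eIF1, eIF1A and eIF3 are bound as well. The eIF4 factors bring the capped mRNA: eIF4E holds the cap, eIF4G is the scaffold and eIF4A the helicase. The factor eIF2B recharges eIF2 with GTP, a step that is blocked when the alpha subunit of eIF2 is phosphorylated. In elongation, eEF1A delivers aminoacyl-tRNA and eEF2 moves the ribosome along. Food deprivation is known for lowering protein synthesis in fast muscles such as the tibialis anterior, largely through phosphorylation and binding of these factors, which arrays do not measure.

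During P2 versus Fed, 8 of the 48 transcripts were called higher and 1 lower (16.7% and 2.08% of the members). A call is a limma adjusted p under 0.05. Over all 14506 genes, 7.07% were called higher and 5.57% lower in the same comparison, and over all 29215 probe sets 5.13% and 4.15%. The higher ones were Eif4g3, Eif2a, Eif2b3, Eef1a1, Eif4b, Eif4a2, Eif6 and Eif3a, and the lower one was Eif4e2. The median log2 change of the members was 0.08, beside 0.01 over all genes. Values of the 3 P2 and the 3 Fed rats did not overlap for 21 members, and for 29% of all genes. Of these members, 20 were higher in P2 and 1 was lower.

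During P3 versus Fed, 25 members were higher and 3 were lower (52.1% and 6.25%). The shares over all genes were 18.2% and 17.1%, and over all probe sets 15.8% and 13.4%. The members called higher were spread over all 6 groups of initiation factors, namely 3 of the 4 genes of eIF1 and eIF1A, 3 of 5 of eIF2, 3 of 5 of eIF2B, 6 of 10 of eIF3, 6 of 10 of eIF4 and 3 of 4 of eIF5, eIF5A, eIF5B and eIF6. Among the 10 genes of eEF1, eEF2 and their methyltransferases, only Eef1a1 was called. All 3 members called lower, Eif4e, Eif4e2 and Eif4e3, encode cap-binding proteins of the eIF4E family. The median log2 change was 0.39 over the 48 members and 0.51 over the 38 initiation factor genes, beside -0.01 over all genes. Groups did not overlap for 36 members, and for 48.4% of all genes.

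During P3 versus P2, 16 members were higher and 2 were lower (33.3% and 4.17%), beside 11.4% and 10.4% of all genes and 8.5% and 7.52% of all probe sets. All 18 were initiation factor genes. The rats of the 2 phases did not overlap for 22 members, and for 34.2% of all genes. Both fasting phases are compared with the same 3 Fed rats, so their changes share that part of the error. The number of arrays, 3 per group, limits the precision of each of these counts.

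**Figure D1:**
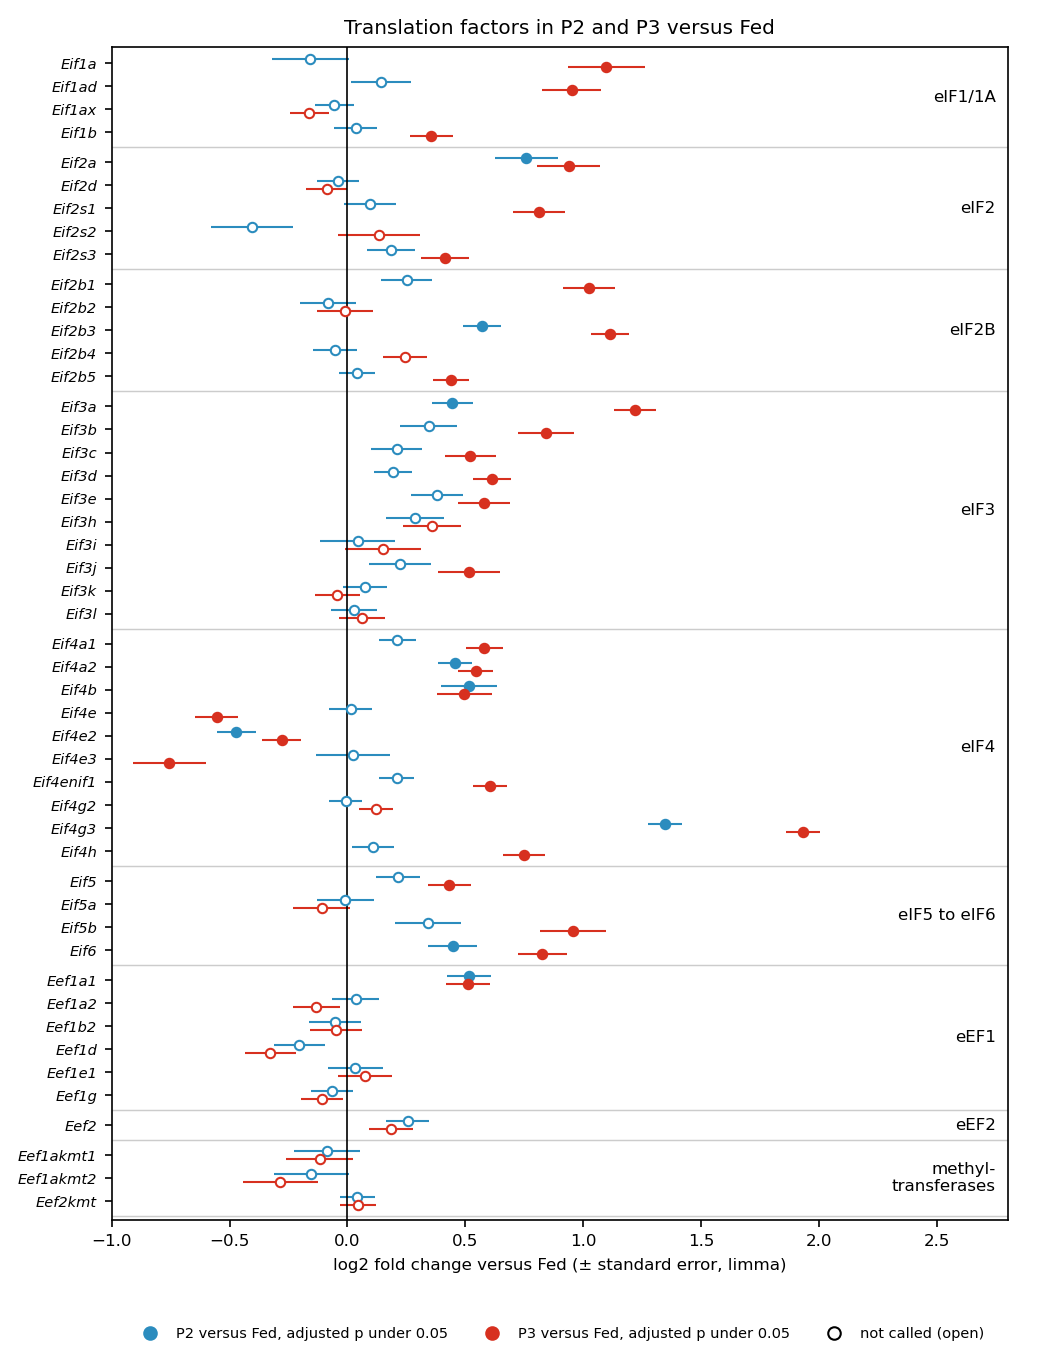
Log2 fold change versus Fed on the horizontal axis for each of the 48 genes, grouped by factor, with bars for the standard error from limma; blue points are P2 and red points P3 (3 rats per group), and filled points passed an adjusted p of 0.05. Red points lie to the right of 0 in most groups of initiation factors, from 1.93 for Eif4g3 down to -0.76 for Eif4e3. Among eEF1, eEF2 and the methyltransferases only Eef1a1 was called. The lowest red points there are Eef1d at -0.33 and Eef1akmt2 at -0.29, both open.

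The tissue carried the transcripts of fast skeletal muscle fibres. All 10 fibre markers checked, among them Acta1, Ckm and Myh4, were present. Their summed level on the log2 scale was 16.7 in Fed, 16.6 in P2 and between 16.4 and 16.5 in P3 rats. Of these 10, Mb, Tnni2 and Pvalb were lower in P3. Among 10 markers of fibro-adipogenic cells, 7 were called lower in P3, mostly collagen and matrix genes. Dcn (0.39) and Gsn (0.19) had positive P3 changes that were not called. In P2, Col3a1 was called lower (-2.44) and Gsn higher (0.74, limma adjusted p = 0.03). The summed log2 level of the 10 was between 14.11 and 14.32 in Fed, 13.32 and 14.10 in P2, and 12.76 and 13.32 in P3. Among 7 adipocyte markers 3 were higher in P2, with a summed log2 level between 10.8 and 10.9 against 10.0 to 10.1 in Fed. For the P3 rats this sum ran from 9.57 to 9.94, below every Fed rat. Fabp4 was the only adipocyte marker called against Fed at that stage, with a change of -0.46 (limma adjusted p = 0.0287). Of the 10 macrophage, 7 endothelial, 5 satellite cell, 5 lymphocyte and 3 Schwann cell markers, 4 passed the test in P3, Cd163 and Pecam1 as higher and Eng and Cdh15 as lower. All 5 satellite cell markers had a negative change in P3, and their summed log2 level was between 8.77 and 8.90 in Fed and between 8.35 and 8.42 in P3. The sum of the 3 Schwann cell markers was between 7.32 and 7.43 in Fed and between 7.03 and 7.23 in P3, and the sums of the macrophage, endothelial and lymphocyte markers overlapped between these groups. The part of these shifts in the changes of the translation factors was not tested. In whole muscle, fewer cells of a type and less RNA per cell cannot be told apart.

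Within eIF1 and eIF1A, Eif1a, Eif1ad and Eif1b were higher in P3 and in no case in P2. Eif1a encodes a form of eIF1A, which helps the small subunit scan for the start codon. Its log2 intensity was 8.85, 8.81 and 8.84 in the Fed rats, 8.23, 8.91 and 8.88 in P2, and 9.82, 10.02 and 9.95 in P3. All P3 rats were above every other rat, and P2 rat 1 was the lowest of all. The log2 change from Fed was -0.16 ± 0.16 (SE, n = 3 per group) in P2 and 1.10 ± 0.16 in P3, which is 2.14-fold (limma adjusted p = 0.000841), and the step from P2 to P3 was 1.26. Eif1ax, the copy on the X chromosome, changed by only -0.06 in P2 and -0.16 in P3 and was not called. The coding sequences of these copies are near-identical, so a probe set may read both.

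Eif1ad encodes a protein with an eIF1A-like domain. Its log2 intensity was 6.67, 6.58 and 7.01 in Fed, 6.71, 7.01 and 6.96 in P2, and 7.80, 7.67 and 7.65 in P3. The P3 rats stood above all others, by a log2 change of 0.95 ± 0.13 from Fed (limma adjusted p = 0.0004). Eif1b, a close relative of the start codon selection factor eIF1, had 8.29, 8.45 and 8.38 in Fed, 8.57, 8.26 and 8.40 in P2, and 8.64, 8.75 and 8.78 in P3. That shift was small, 0.36 ± 0.09 with a limma adjusted p of 0.017. It missed the threshold without Fed rat 1, P3 rat 2 or P3 rat 3, with adjusted p between 0.0519 and 0.0608. The step from P2, 0.32 with adjusted p = 0.0449, was lost without any of the rats but P2 rat 1 (adjusted p between 0.0592 and 0.14).

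Among the genes of eIF2, the alpha and gamma subunits were higher in P3, as was the separate factor Eif2a. Eif2s1 encodes the alpha subunit, on which the stress kinases act. It measured 9.68, 9.51 and 9.55 in Fed, 9.90, 9.50 and 9.62 in P2, and 10.32, 10.50 and 10.36 in P3. Fed and P2 overlapped, and the P3 rats were all higher. The log2 change was 0.09 ± 0.11 in P2 and 0.81 ± 0.11 in P3 (1.76-fold, limma adjusted p = 0.000482). Eif2s3, the gamma subunit that binds GTP and the initiator tRNA, had 9.87, 9.81 and 9.85 in Fed, 9.92, 9.97 and 10.20 in P2, and 10.07, 10.32 and 10.38 in P3. Its rise of 0.41 ± 0.10 in P3 (limma adjusted p = 0.0138) was lost without P3 rat 3 (0.35, adjusted p = 0.0543).

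The beta subunit gene Eif2s2 was not called, with log2 changes of -0.41 in P2 and 0.14 in P3. It had the widest spread of all members within P2, an SD of 0.40, with rats at 10.14, 10.51 and 10.93. Without P2 rat 3 it passed the test as lower in P2 (-0.61, limma adjusted p = 0.0377) and as higher in P3 than in P2 (0.74, adjusted p = 0.00823). Eif2a encodes a single-chain protein that can bind initiator tRNA without being part of the eIF2 complex. It was at 8.76, 8.83 and 8.86 in Fed, 9.89, 9.40 and 9.44 in P2, and 9.59, 9.81 and 9.87 in P3. Every fasted rat exceeded every Fed rat, and the phases overlapped. The log2 change was 0.76 ± 0.13 in P2 (limma adjusted p = 0.00892) and 0.94 ± 0.13 in P3 (adjusted p = 0.00065). Eif2d, which acts in non-canonical initiation and recycling, was not called (-0.04 and -0.09).

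The eIF2B complex showed a split among its subunits. Eif2b3 was higher in both phases, Eif2b1 and Eif2b5 were higher in P3, and Eif2b2 and Eif2b4 were not called. Eif2b3 encodes the gamma subunit, which pairs with epsilon in the catalytic part. Its log2 intensity was 7.80, 7.99 and 7.94 in Fed, 8.53, 8.46 and 8.45 in P2, and 8.99, 9.14 and 8.94 in P3. The 3 groups formed separate steps with no overlap. The log2 change was 0.57 ± 0.08 in P2 (limma adjusted p = 0.00318) and 1.11 ± 0.08 in P3 (2.16-fold, adjusted p = 1.11e-05), and P3 exceeded P2 by 0.54 (adjusted p = 0.00173).

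Eif2b1, the alpha subunit of the regulatory part, had 9.08, 9.14 and 9.22 in Fed, 9.62, 9.31 and 9.27 in P2, and 10.08, 10.31 and 10.13 in P3. Its P2 rats lay just above the Fed rats, a change of 0.25 that was not called, and its P3 rats rose 2.03-fold over Fed (log2 1.02 ± 0.11, limma adjusted p = 0.000105). Eif2b5 encodes the catalytic epsilon subunit. It was at 8.91, 9.01 and 9.06 in Fed, 9.02, 9.03 and 9.03 in P2, and 9.30, 9.52 and 9.46 in P3. P2 fell within the Fed range, and P3 was above both by 0.44 ± 0.08 over Fed (limma adjusted p = 0.00216) and 0.40 over P2. The beta and delta subunit genes Eif2b2 and Eif2b4 changed by -0.01 and 0.25 in P3.

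**Figure D2:**
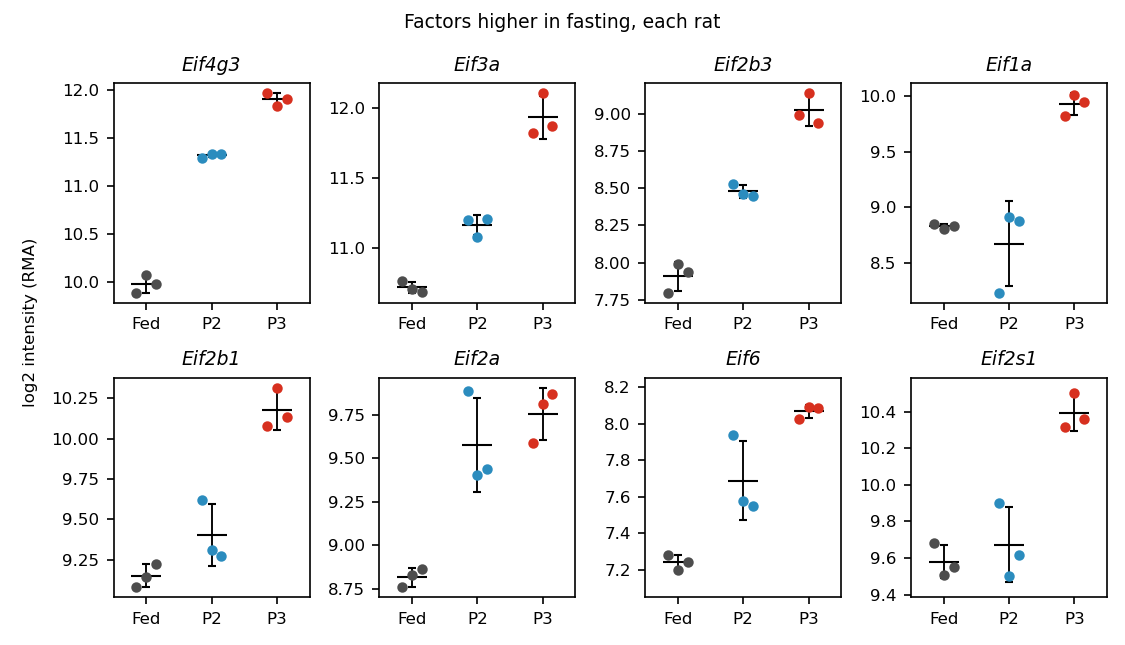
Log2 intensity (vertical axis, a separate scale for each gene) of 8 initiation factor genes in each of the 9 rats; points are rats, and the horizontal dash with its bar is the group mean with its SD. Eif4g3, Eif3a and Eif2b3 step up from Fed to P2 to P3 with no overlap, Eif1a and Eif2s1 separate in P3, and Eif2a is already high in P2.

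The eIF3 complex, which holds the small ribosomal subunit and links it to the eIF4 factors, had 6 of its 10 measured subunit genes higher in P3 and Eif3a alone called in P2. Eif3a encodes the core scaffold subunit. It measured 10.76, 10.70 and 10.68 in Fed, 11.20, 11.08 and 11.20 in P2, and 11.82, 12.11 and 11.88 in P3, again in 3 steps without overlap. The log2 change was 0.44 ± 0.09 in P2 (limma adjusted p = 0.0149) and 1.22 ± 0.09 in P3 (2.33-fold, adjusted p = 1.07e-05). The P2 call was lost without Fed rat 2, Fed rat 3 or P2 rat 3, with adjusted p between 0.0546 and 0.0582.

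Eif3b, the partner of eIF3a in the core, had 10.17, 10.10 and 10.10 in Fed, 10.45, 10.32 and 10.63 in P2, and 10.72, 11.15 and 11.02 in P3. Its groups did not overlap, but the P2 change of 0.34 was not called, and the P3 change was 0.84 ± 0.12 (limma adjusted p = 0.000632). The step from P2 to P3, 0.50 with adjusted p = 0.0205, was lost without P2 rat 1, P2 rat 2, P3 rat 2 or P3 rat 3 (adjusted p between 0.0527 and 0.0741). Eif3d, a subunit that can itself bind the cap, was at 9.33, 9.32 and 9.41 in Fed, 9.64, 9.50 and 9.50 in P2, and 9.85, 10.08 and 9.97 in P3. These groups were again in steps, with 0.19 in P2, not called, and 0.61 ± 0.08 in P3 (limma adjusted p = 0.000418).

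Eif3e had 11.54, 11.28 and 11.49 in Fed, 11.93, 11.61 and 11.90 in P2, and 11.91, 12.11 and 12.02 in P3. Both fasted groups lay above the Fed rats, and only the P3 change of 0.58 ± 0.11 passed the test (limma adjusted p = 0.00335). Without P2 rat 2 the P2 change passed too (0.48, adjusted p = 0.0307). Eif3c and Eif3j were each higher by 0.52 in P3, and the call of Eif3j was lost without Fed rat 2, P3 rat 2 or P3 rat 3 (adjusted p between 0.0501 and 0.0616). Eif3k, Eif3l and Eif3i, whose P3 changes ran from -0.04 to 0.15, were not called.

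Eif3h is read by 2 probe sets that differed in their call. The brighter gave 0.29 in P2 and 0.36 in P3 (limma adjusted p = 0.0576), and it passed in P3 without P2 rat 1 (adjusted p = 0.00953) or P2 rat 2 (0.0428). The dimmer gave 0.49 in P2 and 0.60 in P3, with adjusted p of 0.0469 and 0.00667. Both probe sets moved upwards. Of the other members, Eef1a1 alone has a second probe set, and there the 2 gave like values, 0.52 and 0.52 in P2 and 0.51 and 0.51 in P3.

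**Figure D3:**
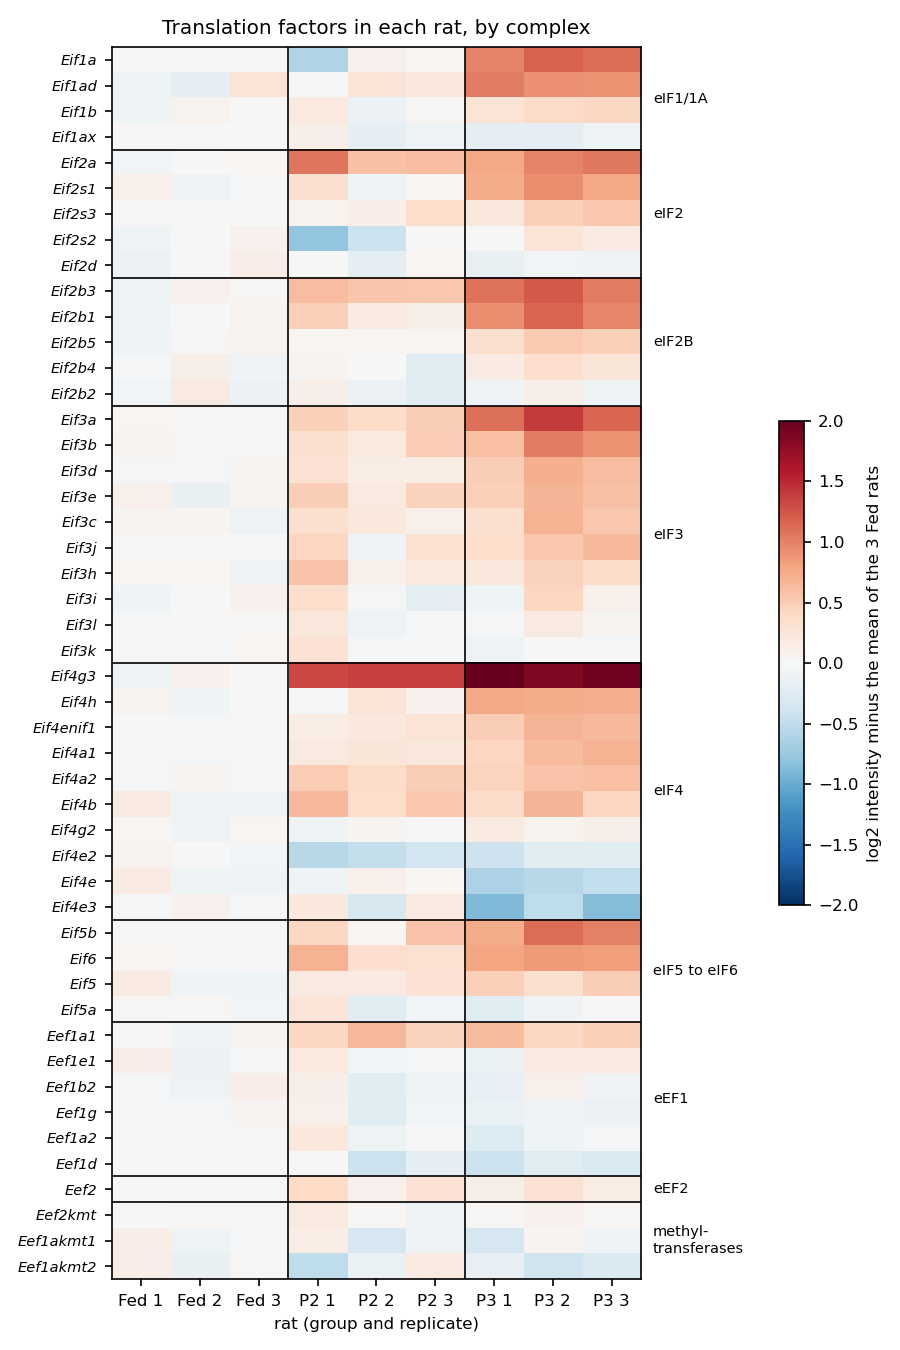
Log2 intensity of each of the 48 genes (rows, by factor and then by change in P3) in each rat (columns) minus the mean of the 3 Fed rats; red is higher and blue lower than Fed, on a scale from -2 to 2. The P3 columns are red for most genes of eIF1 to eIF6 and blue for Eif4e, Eif4e2 and Eif4e3, and P2 rat 1 is low for Eif1a and Eif2s2.

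The median over the members summarises each rat. The median difference of the 48 genes from the Fed mean was 0.25, 0.42 and 0.42 on the log2 scale in the 3 P3 rats, and 0.20, 0.05 and 0.10 in the 3 P2 rats. For the 10 genes of eIF3, the corresponding medians were 0.34, 0.61 and 0.56 in P3 and 0.34, 0.12 and 0.17 in P2. For the 6 genes of eEF1 they lay between -0.15 and 0.01 in P3 and between -0.16 and 0.16 in P2. The SD within a group had, over the members, a median of 0.07 (Fed), 0.16 (P2) and 0.11 (P3).

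The eIF4 group held both the member with the greatest rise and all 3 members called lower. Eif4g3 encodes the scaffold eIF4GII, which joins the cap-binding protein, the helicase and eIF3. Its log2 intensity was 9.88, 10.07 and 9.97 in Fed, 11.29, 11.34 and 11.34 in P2, and 11.97, 11.84 and 11.91 in P3. The 3 groups stood far apart relative to the spread within them. The change was 1.35 ± 0.07 in P2 (2.54-fold, limma adjusted p = 7.35e-05) and 1.93 ± 0.07 in P3 (3.82-fold, adjusted p = 3.75e-07), and P3 exceeded P2 by 0.59 (adjusted p = 0.000599). Ranked by log2 change among the 14506 genes, Eif4g3 was number 83 from the top in P2 and number 162 in P3. Eif4g2, a relative without the cap-binding site, was not called (-0.01 and 0.12).

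The transcripts of the 3 cap-binding proteins were each called lower in P3. None of them passed the study's own Tukey test, which takes p under 0.001. Its p in P3 versus Fed was 0.00169 for Eif4e, 0.0217 for Eif4e2 and 0.0121 for Eif4e3. For Eif4e, as for Eif2s1 and Eif2b5, the study reported that significance was not reached. Eif4e, the main cap-binding protein, was at 11.11, 10.86 and 10.86 in Fed, 10.85, 11.04 and 10.98 in P2, and 10.32, 10.39 and 10.45 in P3. Fed and P2 overlapped, and the P3 rats were all lower, by -0.55 ± 0.09 from Fed (0.681-fold, limma adjusted p = 0.00148) and -0.57 from P2 (adjusted p = 0.0026). Eif4e3, a related cap-binding protein, had 8.09, 8.22 and 8.10 in Fed, 8.35, 7.82 and 8.32 in P2, and 7.25, 7.63 and 7.27 in P3. It too was lower only in P3, by -0.76 ± 0.16 (0.592-fold, limma adjusted p = 0.00529).

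Eif4e2 encodes a cap-binding protein that does not bind eIF4G and is known for repressing mRNAs; its values in each rat are given because it alone fell in P2, a choice made after its values were seen. It had 9.63, 9.55 and 9.50 in Fed, 9.00, 9.09 and 9.18 in P2, and 9.15, 9.35 and 9.34 in P3. All fasted rats were below all Fed rats. The change was -0.47 ± 0.08 in P2 (limma adjusted p = 0.00885) and -0.28 ± 0.08 in P3 (adjusted p = 0.0318). The P3 call was lost without Fed rat 1, Fed rat 2 or P3 rat 1, with adjusted p between 0.0763 and 0.105, and also with array medians subtracted (0.0657) or the replicate block (0.0603). Eif4enif1, the protein that carries eIF4E into the nucleus and to sites of mRNA decay, had 7.89, 7.86 and 7.92 in Fed, 8.04, 8.09 and 8.16 in P2, and 8.38, 8.57 and 8.54 in P3. It stepped up without overlap, with 0.21 in P2, not called, and 0.61 ± 0.07 in P3 (limma adjusted p = 0.000238).

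The helicases and their cofactors were all higher in P3. Eif4a1 measured 9.53, 9.47 and 9.53 in Fed, 9.69, 9.75 and 9.72 in P2, and 9.93, 10.14 and 10.20 in P3. Its small P2 shift of 0.21 was not called, and the P3 change was 0.58 ± 0.08 (limma adjusted p = 0.000506). Eif4a2, the other helicase gene, was at 12.01, 12.09 and 12.03 in Fed, 12.55, 12.41 and 12.54 in P2, and 12.49, 12.62 and 12.64 in P3. For this gene both phases were above Fed and overlapped each other, with changes of 0.46 ± 0.07 (adjusted p = 0.00583) and 0.54 ± 0.07 (adjusted p = 0.000453).

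Eif4h and Eif4b encode proteins that stimulate the helicase. Eif4h had 8.81, 8.65 and 8.74 in Fed, 8.69, 9.00 and 8.82 in P2, and 9.51, 9.48 and 9.45 in P3. It followed the P3-only pattern, with 0.11 in P2 and 0.75 ± 0.09 in P3 (1.68-fold, limma adjusted p = 0.000216). Eif4b rose by 0.51 ± 0.12 in P2 and by 0.50 ± 0.12 in P3, with adjusted p of 0.0283 and 0.0116. Its P2 call was lost without Fed rat 2, Fed rat 3, P2 rat 1 or P2 rat 3 (adjusted p between 0.0625 and 0.106).

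Among the later initiation factors, Eif5, Eif5b and Eif6 were higher in P3, and Eif5a, the hypusine-bearing factor, was not called (-0.01 and -0.11). Eif5b encodes the GTPase that joins the 2 ribosomal subunits. It had 9.97, 9.97 and 9.94 in Fed, 10.37, 10.00 and 10.53 in P2, and 10.70, 11.08 and 10.96 in P3. The P2 rats scattered between the other groups, and the P3 rats lay above all by 0.96 ± 0.14 over Fed (1.94-fold, limma adjusted p = 0.000816). Its step from P2 to P3, 0.62, was lost without P3 rat 2 or P3 rat 3 (adjusted p = 0.0644 and 0.0613), and without P2 rat 2 the P2 change passed (0.49, adjusted p = 0.0483).

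Eif6 encodes the factor that keeps the large ribosomal subunit from joining too early. It was at 7.28, 7.20 and 7.24 in Fed, 7.94, 7.58 and 7.55 in P2, and 8.03, 8.09 and 8.08 in P3, in 3 steps. The P3 change was 0.83 ± 0.10 (1.77-fold, limma adjusted p = 0.000296). The P2 change of 0.45 ± 0.10 (adjusted p = 0.029) was lost without Fed rat 1, Fed rat 2, Fed rat 3 or P3 rat 3, with adjusted p between 0.0505 and 0.101. It was lost too under quantile normalization once more (0.0801), in a fit of Fed and P2 alone (0.0779) and with the replicate block (0.0544). Its step from P2 to P3, 0.38 with adjusted p = 0.0368, was lost without any of the rats but P2 rat 1 (adjusted p between 0.0576 and 0.125). Eif5, which makes eIF2 hydrolyse its GTP at the start codon, had 11.45, 11.19 and 11.20 in Fed, 11.46, 11.45 and 11.58 in P2, and 11.76, 11.60 and 11.77 in P3. The shift from Fed to P3 was 0.43 ± 0.09 (limma adjusted p = 0.00637).

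In elongation, the transcript of one eEF1A gene was raised and the other was not. Eef1a1 encodes the form of eEF1A found in most tissues, and Eef1a2 the form that replaces it in mature muscle fibres and neurons. Eef1a1 had 12.09, 11.98 and 12.11 in Fed, 12.47, 12.73 and 12.53 in P2, and 12.70, 12.48 and 12.54 in P3. All fasted rats were above all Fed rats, by 0.52 ± 0.09 in P2 (1.43-fold, limma adjusted p = 0.00993) and 0.51 ± 0.09 in P3 (1.43-fold, adjusted p = 0.00269). Eef1a2 was at 12.41, 12.45 and 12.47 in Fed, 12.66, 12.34 and 12.44 in P2, and 12.17, 12.35 and 12.41 in P3. Its groups overlapped, and its changes of 0.03 and -0.13 were not called. The 2 genes are alike in their coding sequence, and related sequences elsewhere in the genome can add to the Eef1a1 signal.

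The other elongation genes were not called in any comparison. Eef2, the translocation factor, had changes of 0.26 ± 0.09 in P2 (limma adjusted p = 0.138) and 0.19 ± 0.09 in P3 (adjusted p = 0.18), and passed in P2 without P2 rat 2 (0.34, adjusted p = 0.0489). Eef1d, a subunit of the exchange factor that reloads eEF1A, had a change of -0.33 ± 0.11 in P3 that was not called (limma adjusted p = 0.0504). This change passed in 6 of 17 alternative limma settings, among them without P2 rat 1 (adjusted p = 0.0213) or P2 rat 2 (0.0157). The other exchange factor genes Eef1b2 and Eef1g, with Eef1e1 of the synthetase complex, changed by -0.11 to 0.07 in P3. The methyltransferase genes Eef1akmt1, Eef1akmt2 and Eef2kmt had P3 changes of -0.12, -0.29 and 0.05.

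**Figure D4:**
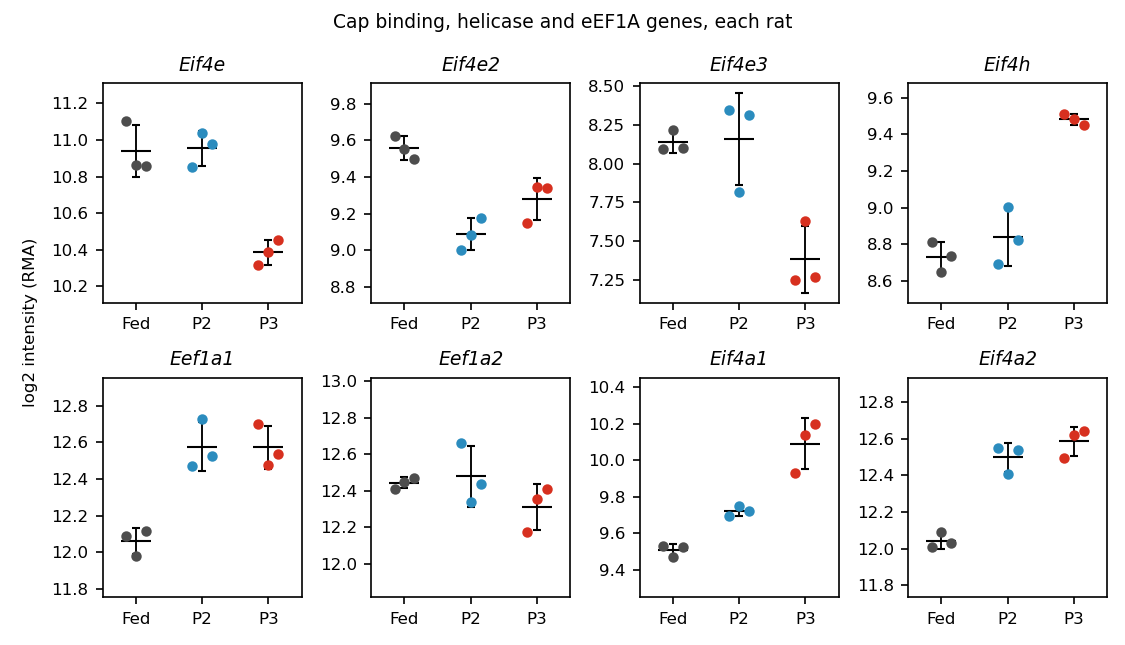
Log2 intensity (vertical axis, a separate scale for each gene) of the cap-binding genes Eif4e, Eif4e2 and Eif4e3, the helicase cofactor Eif4h and 2 pairs of paralogues in each of the 9 rats; points are rats, and the dash with its bar is the group mean with its SD. Eif4e and Eif4e3 are low in P3, Eif4e2 in both phases, Eef1a1 is high in both phases while Eef1a2 overlaps between groups, and Eif4a2 reaches its P3 range in P2 while Eif4a1 does not.

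Paralogues were compared as 3 pairs within each array, by the difference of their log2 intensities, with an exact permutation test of the F statistic over the 1680 ways of dividing the 9 rats. The difference of Eef1a1 minus Eef1a2 rose from Fed by 0.48 in P2 and 0.64 in P3 (exact permutation p = 0.0321, adjusted over 3 pairs 0.0482). Eif4a1 minus Eif4a2 moved by -0.24 in P2 and 0.04 in P3 (exact permutation p = 0.0214, adjusted 0.0482). Eif4e minus Eif4e3 moved by -0.01 and 0.20 and passed no test (exact permutation p = 0.564). The first 2 of these calls were lost when any one of 8 rats was left out, P2 rat 2 being the exception, with adjusted p up to 0.177. The smallest p this design allows is 0.00357.

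By time course, the 28 members called against Fed fell into few patterns. The share of all genes in each pattern was not computed, so these counts describe the members only. Higher in both phases were 8, of which Eif2b3, Eif3a, Eif4g3 and Eif6 were higher again in P3 than in P2, and Eef1a1, Eif2a, Eif4a2 and Eif4b were not. Higher in P3 without a call in P2 were 17. Of these, 12 were also called against P2, namely Eif1a, Eif1ad, Eif1b, Eif2b1, Eif2b5, Eif2s1, Eif3b, Eif3d, Eif4a1, Eif4enif1, Eif4h and Eif5b. Eif4e and Eif4e3 were lower in P3 against both other groups. The change in P3 was 2-fold or more for Eif1a, Eif2b1, Eif2b3, Eif3a and Eif4g3.

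Genes that act on these factors were looked at as a list. Of 17 regulators measured, 5 were higher and 2 lower in P2, beside 7.07% and 5.57% of all genes, and 8 were higher and 3 lower in P3, beside 18.2% and 17.1%. Eif4ebp1, which binds eIF4E and keeps it from eIF4G, had 8.31, 8.34 and 8.20 in Fed, 10.10, 9.76 and 9.76 in P2, and 10.90, 10.98 and 10.97 in P3. That is a log2 rise of 1.59 ± 0.10 in P2 (limma adjusted p = 7.92e-05) and 2.67 ± 0.10 in P3 (6.36-fold, adjusted p = 3.82e-07), with no overlap between groups. Ppp1r15a, which directs a phosphatase to eIF2 alpha, had 6.75, 7.09 and 7.11 in Fed, 8.18, 8.09 and 7.81 in P2, and 9.86, 9.58 and 9.80 in P3.

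Its rise was 1.04 ± 0.13 in P2 and 2.77 ± 0.13 in P3 (6.8-fold, limma adjusted p = 1.39e-06), again in steps. Its paralogue Ppp1r15b rose by 0.54 and 0.90, and Atf4, the transcription factor whose mRNA is translated when eIF2 is phosphorylated, by 0.53 and 1.04. Of the kinase genes for eIF2 alpha, Eif2ak3 and Eif2ak4 were not called, and Eif2ak2 was lower in P3 (-0.47, limma adjusted p = 0.014). Eif2ak1 was not called against Fed (-0.26 in P2 and 0.26 in P3, with all P3 rats above all Fed rats), but it was higher in P3 than in P2 (0.52, adjusted p = 0.00751). The eEF2 kinase gene Eef2k was lower in P3 by -0.71 ± 0.11 (adjusted p = 0.000908). The kinases that phosphorylate eIF4E moved apart, with Mknk1 at -0.64 and -0.99 and Mknk2 at 0.74 and 0.92 in P2 and P3, all 4 called. Also called against Fed were Eif4ebp2 (0.62), Mtor (0.31) and Rptor (0.38) as higher in P3. Rps6kb1 was called lower in P2 (-0.43) but not in P3 (-0.27). Rps6kb2 and Pdcd4 were not called.

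**Figure D5:**
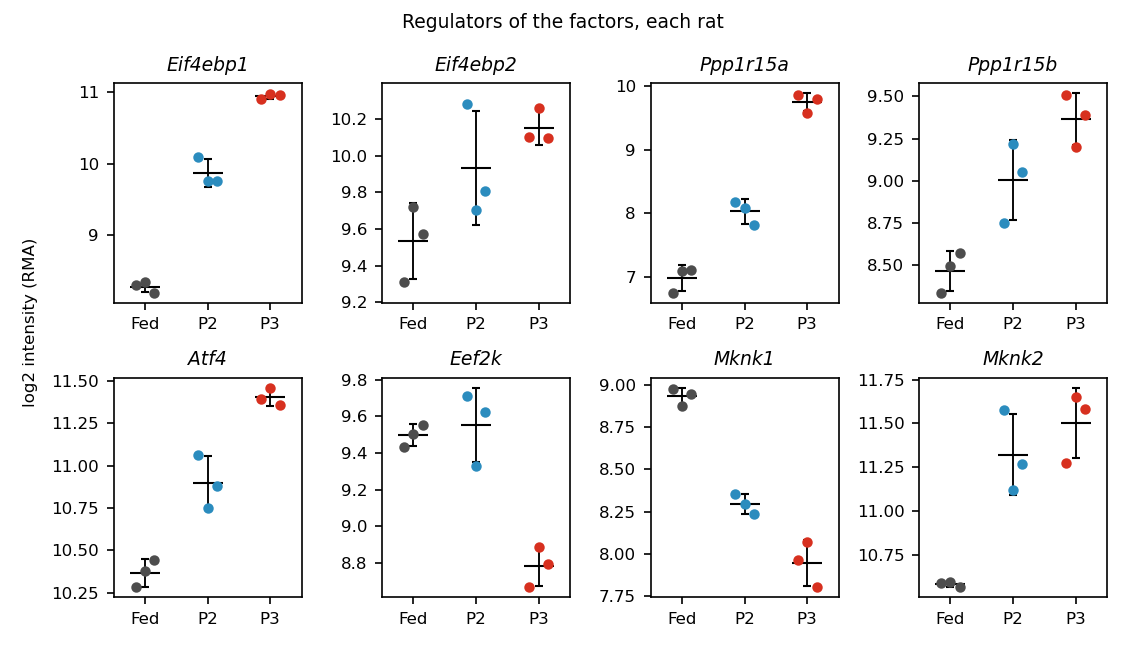
Log2 intensity (vertical axis, a separate scale for each gene) of 8 genes that regulate the factors in each of the 9 rats; points are rats, and the dash with its bar is the group mean with its SD. Eif4ebp1, Ppp1r15a and Atf4 step up through P2 to P3, Mknk1 steps down, Mknk2 is high in both phases, and Eef2k is low in P3.

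Counts in other lists of the translation machinery were small and are to be read beside the 18.2% of all genes called higher and the 17.1% called lower in P3. Of 7 release and recycling factors, 3 were higher and 1 lower in P3, with Pelo, a ribosome rescue factor, up by 0.65 in P2 and 2.18 in P3 (4.54-fold, limma adjusted p = 1.27e-05) and Abce1, which splits ribosomes, up by 0.84 in P3. Of 8 genes for the hypusine and diphthamide modifications of eIF5A and eEF2, Dph1 (1.04) and Dph7 (0.47) were higher in P3. Of 5 partners at the cap and the poly(A) tail, 2 were higher and 2 lower in P3. The mitochondrial translation factors moved downwards, 5 of 6 being lower in P3 (Tufm -0.71, Gfm2 -0.65, Gfm1 -0.55, Mtif2 -0.45 and Mtrf1l -0.36) and Mrrf higher (0.33). Their median log2 change in P3 was -0.50, beside 0.39 for the cytosolic factors.

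Promoters of 42 of the 48 genes were found in RefSeq's table for the rat assembly GRCr8, each with 250 bases before and 50 bases after the annotated start. Eef1d, Eif3e, Eif3h, Eif4b, Eif4e3 and Eif5 were not among them. Many mRNAs of the translation machinery start with a C followed by an unbroken run of pyrimidines, through which mTOR controls their translation. The windows below show the annotated start of the 2 eEF1A genes, of Eif2a and of Eif4g3, with 12 bases before the start and 18 from it, and capitals mark the run of C and T that covers the start.
Eef1a1: ccttggacgTTCTTTTTCgcaacgggtttg
Eef1a2: tcgggtacaTCTCTgcagctgcgtcctctc
Eif2a: gcgcatgggTTTCTCTTTCCgggacaagat
Eif4g3: agcggccgtcctgccggactgctggaggcg
They lie at chr8:88225052-88225081 (minus strand), chr3:188652616-188652645 (minus), chr2:144911348-144911377 (plus) and chr5:155481366-155481395 (plus). The run is 9 bases long for Eef1a1, 5 for Eef1a2 and 11 for Eif2a, and Eif4g3 has none at its annotated start. With C exactly at the start and 4 pyrimidines after it, 1 of the 42 members qualified (Eif2a), beside 2.63% of all 27457 promoters. Within 5 bases of the start, 8 of 42 did (19.0%), beside 15.6% of all promoters. These were 4 of the 22 members higher in P3 (18.2%) and 4 of the 20 others (20.0%).

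A second motif searched was the E-box CACGTG, the recognition sequence of MYC and related factors, which reads the same on both strands. It was found in 7 of 42 member promoters (16.7%), beside 6.65% of all promoters and 7.88% of those of the 11951 measured genes with one. Among members called higher in P3 it was in 4 of 22, and among the others in 3 of 20. Windows of 30 bases are shown for 4 members that changed in P3, of which Eif4e was lower and the others higher, with the E-box in capitals.
Eif3a: ccgcgagggaatCACGTGgctccttccttt
Eif3b: actcgctgcacgCACGTGgctccgcgctag
Eif4h: tggccgccccacCACGTGggccgcagagcg
Eif4e, far: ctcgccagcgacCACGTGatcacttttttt
Eif4e, near: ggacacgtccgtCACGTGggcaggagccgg
These are at chr1:269918978-269919007 (minus strand, 30 bases after the start), chr12:19334808-19334837 (minus, 57 bases before it), chr12:27719512-27719541 (plus, 168 before) and, for Eif4e, which fell in P3, chr2:229740504-229740533 (plus, 237 before) and chr2:229740661-229740690 (plus, 80 before). The other promoters with an E-box were those of Eif1b, Eef2 and Eif5a. A match of letters is a description of the window and does not show that a factor binds there.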

How the data were processed

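Transcripts of tibialis anterior muscle were measured on 9 GeneChip Rat Gene 1.0 ST arrays, 3 rats per group, with groups and replicate numbers from the sample titles. The authors summarised the scans with GCOS and Expression Console 1.1 (sketch quantile normalization, median polish as in RMA), and deposited log2 intensities of 29215 probe sets. The table carries no detection calls, and scanner files were not used here. Probe sets were named from the platform annotation: 15310 have 1 symbol, 323 several and 13582 none. Where a gene had several, the one brightest on average was kept, which left 14506 genes. Array medians lay between 5.80 and 5.90, and arrays correlated at 0.987 to 0.994 within groups.

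The test was limma 3.58.1 in R 4.3.3 (lmFit and eBayes, 3 group means, all 9 arrays), with Benjamini-Hochberg adjustment over all 29215 probe sets and a threshold of 0.05. It was also run on simulated data with independent noise, and no result of that run is used here. Paralogue pairs were tested by exact permutation in Python 3.11.15, two-sided in effect since F has no sign. Their p values were adjusted by Benjamini-Hochberg in scipy 1.17.1. The members, factor groups, related lists, markers and motifs were chosen with earlier results of these data known. Values of every rat are given, per group of factors, for up to 4 called members with the greatest change in P3, for those the study names and for paralogue pairs. The alternatives were quantile normalization once more, array medians subtracted, only probe sets with a mean log2 intensity of at least 5, trended robust moderation, weighted arrays, a fit of the 2 groups compared, the replicate block, averaging the probe sets of each gene, the methods' analysis of variance with Tukey test, and leaving out each array. Nothing in the labels says that rats of a group differ in batch, and no batch was tested.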

Additional observations from a re-analysis of the deposited data

How the results depend on the processing

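Under the methods' analysis of variance with Tukey test, both p values had to be under 0.001, unadjusted. The members called against Fed were then 3 higher and 0 lower in P2, and 10 and 0 in P3. Those of P3 versus P2 were 4 and 0. This threshold is stricter by construction. The shares of all genes called under this and the other settings below were not computed. The counts therefore show only how the calls of the members move. Quantile normalization once more gave 5 lower in P3 versus Fed in place of 3, adding Eef1d and Eif1ax. With single arrays left out, the counts ranged from 5 to 11 higher and 1 to 2 lower in P2, from 22 to 26 and 2 to 4 in P3 (each versus Fed), and from 12 to 15 higher with 2 lower in P3 versus P2. The count of 5 came without Fed rat 2 or Fed rat 3, and the 2 lower in P2 without P2 rat 3. The fold changes kept their direction for every call in all of these settings. Scaling moved the median log2 fold change of all probe sets by 0.04 at most. With the replicate block, that is the replicate number of the labels as a term, the counts were 6 and 1, 25 and 2, and 15 and 2. Calls against Fed that were lost, with their adjusted p, were Eif4b in P2 (0.0658), Eif6 in P2 (0.0544) and Eif4e2 in P3 (0.0603) with the replicate block, Eif6 in P2 (0.0801) and Eif1b in P3 (0.101) under quantile normalization once more, Eif6 in P2 (0.0779) in a fit of the groups compared, and Eif4e2 in P3 (0.0657) with array medians subtracted. The calls of P3 versus P2 were lost for Eif1b and Eif6 with the replicate block (0.104 and 0.0602), quantile normalization (0.145 and 0.0789) and a fit of the groups compared (0.0916 and 0.0963), where Eif3b (0.0678) and Eif5b (0.0634) were lost as well, and for Eif1b with trended robust moderation (0.0646). Under the analysis of variance adjusted by Benjamini-Hochberg, with Tukey p under 0.05, the calls against Fed of Eif4b in P2 and of Eif1b, Eif2s3, Eif3j and Eif4b in P3 were lost, as was that of Eif1b in P3 versus P2. Gained there were Eif3e, Eif4a1 and Eif4enif1 in P2. Weighted arrays added Eif3b, Eif3e and Eif4enif1 in P2 versus Fed, and Eif2b4 and Eif3c in P3 versus P2. Eef1d and Eif3h each passed in P3 versus Fed in 6 of 17 limma settings. Eif2s2 passed in P3 versus P2 with the intensity filter (limma adjusted p = 0.0458) and the replicate block (0.0417). Deviations from the group means correlated at -0.24 to 0.12 between same-numbered rats of different groups. Between differently numbered rats the correlations ran from -0.16 to 0.31. These values show no pairing by number, and they cannot exclude it. For the paralogue pairs with single arrays left out, the change from Fed to P3 ranged from 0.51 to 0.71 for Eef1a1 minus Eef1a2, from -0.00551 to 0.069 for Eif4a1 minus Eif4a2, with the negative value without Fed rat 2, and from 0.11 to 0.32 for Eif4e minus Eif4e3. Intensities without detection calls leave the background of each probe set unknown.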
